A study of Mus musculus with 6 samples.

Results

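The collagen chain genes of the mouse were followed in whole left lungs after warm ischemia and reperfusion. They were taken by name and type, as every protein-coding gene of the deposited table whose symbol is Col, a type number, the letter a and a 1-digit chain number. This gave 44 genes of the 23194 in the table, of which 17666 are protein-coding. They were grouped by the kind of collagen they form into 11 fibrillar chains, 8 basement membrane chains and 25 other chains. The study compared 3 naive lungs with 3 injured lungs, all from adult wild type mice of the strain C57BL/6. In the injured mice a ligature closed the left pulmonary artery for 4 h, the vessel that brings blood to the left lung for gas exchange, and flow was then restored for 24 h. Naive mice are labelled as controls and are not described as operated on, so surgery and ischemia cannot be told apart. The protocol text allows 4 h or 5 h of ligation, while titles and design give 4 h.

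Collagens are secreted proteins in which chains, encoded by separate genes, wind into a helix of 3 strands. Fibrillar collagens, led by types I and III, build the cable-like fibers that give lung tissue its tensile strength. Type IV collagen forms the sheet-like network of basement membranes. Its α1 and α2 chains occur in nearly all basement membranes, and the α3, α4 and α5 chains form a network found in few tissues, the alveolar basement membrane among them. FACIT collagens do not form fibers themselves but sit on fiber surfaces, and beaded filament, short-chain and transmembrane collagens fill other places in the matrix and at the cell surface. In lung, fibroblasts are a main source of fibrillar collagen, while epithelial and endothelial cells also make basement membrane chains.

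The 6 libraries held 18913487 to 34986276 gene counts. The lung labels were checked against markers: the summed level of 6 alveolar type 1 cell markers, led by Ager, was 4277 to 4882 CPM across naive lungs and 4214 to 4826 CPM across injured ones. Markers of fibroblasts summed to 8809 to 9239.7 CPM across naive lungs and 8009.7 to 8856 CPM across injured ones, with 0 of 10 called changed. Most of this sum was Gsn, at 5072, 5437 and 5201 CPM in naive and 4775, 5265 and 4517 CPM in injured replicates. Single log2 fold changes ran from -0.81 to 0.15. Tcf21 lay lower in every injured than in every naive lung, and 0 of the 10 lay higher, against 10.6% and 12.3% of all genes tested. Neutrophil markers rose, with 5 of 6 called higher, from a summed 45.0 to 78.4 CPM across naive lungs to 507 to 1155 CPM across injured ones. Of all genes tested, 2.16% were called higher. Heart muscle markers, known from the muscle sleeve of pulmonary veins, summed to 447 to 803 CPM across naive lungs and 124 to 621 CPM across injured ones. CPM are counts scaled to a common library size after correction for composition. Levels are compared between genes only as FPKM, the deposited values per gene length.

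The 6 type IV genes lie in 3 head-to-head pairs, in which both genes start close together and run in opposite directions. Because the α3 to α6 genes were each lower in all injured than in all naive lungs, the DNA between the start sites of Col4a4 and Col4a3, and next to those of Col4a6 and Col4a5, is shown. Sequences are from RefSeq, build GRCm38.p6, and 35 of the 44 genes had a promoter entry. Between Col4a4 (minus strand) and Col4a3 (plus strand) lie only 71 bases, at chr1:82586850-82586920, given here on the minus strand. The stretch just before Col4a6 is chrX:141474077-141474326 on the minus strand, with a GC box in capitals. The stretch before Col4a5 is chrX:141475169-141475384 on the plus strand, cut to leave out exon sequence, with a CCAAT box in capitals.
Col4a4: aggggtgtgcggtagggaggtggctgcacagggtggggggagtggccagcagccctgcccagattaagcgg
Col4a6: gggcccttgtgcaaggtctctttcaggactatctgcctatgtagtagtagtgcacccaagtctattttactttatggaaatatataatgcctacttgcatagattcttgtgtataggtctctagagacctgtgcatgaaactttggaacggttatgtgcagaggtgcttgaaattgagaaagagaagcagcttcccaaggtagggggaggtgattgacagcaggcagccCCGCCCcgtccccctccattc
Col4a5: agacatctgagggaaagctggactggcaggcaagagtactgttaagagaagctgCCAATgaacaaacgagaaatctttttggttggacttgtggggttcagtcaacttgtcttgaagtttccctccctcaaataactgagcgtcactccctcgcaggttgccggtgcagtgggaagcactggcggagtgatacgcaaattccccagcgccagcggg
Both strands were searched for the GC box (GGGCGG), the CCAAT box, the TATA box (TATAAA) and the site letters of AP-1 (TGANTCA), none of which contains another. Of windows of the same length in 32851 promoters, 32.7% held the GC box letters found before Col4a6 and 30.8% the CCAAT letters found before Col4a5. These windows lie directly before each start site. The Col4a5 stretch ends at 141475384, short of its RefSeq start at 141475419, so its share comes from windows at another position. The other letters searched were not in the stretches before Col4a6 and Col4a5, and none of the 4 motifs was in the 71 bases of the Col4a4 and Col4a3 pair. Start sites of Col4a6 and Col4a5 are 1308 bases apart on chromosome X, and the starts of Col4a1 and Col4a2 on chromosome 8 overlap by 22 bases. A match is a description of letters only.

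The comparison asked which collagen chains differ between injured and naive lungs. Of the 44 genes, 36 had enough counts to be tested, 5 were lower in injured lungs and 0 were higher at an adjusted p under 0.05 (edgeR quasi-likelihood test). Of all 15486 genes tested, 0.956% were called lower and 2.16% higher, 3.11% in either direction. The 5 genes were Col12a1, Col14a1, Col4a3, Col4a6 and Col25a1. At an unadjusted p under 0.05, 13 collagen genes were lower and 1 higher, against 7.66% and 9.06% of all genes tested. DESeq2 called 7 lower and 0 higher, and limma-voom 3 and 0. Over all genes DESeq2 called 417 lower and 585 higher, and limma-voom 131 and 296. The median log2 fold change over the 36 genes was -0.21, against -0.00096 over all genes. Every injured lung lay below every naive lung for 11 of the 36 genes, where 10.6% of all genes did so, and above for 1 gene, where 12.3% did. In whole tissue, fewer cells of a type and less RNA per cell cannot be told apart. Of the fibrillar chains 0 of 9 tested were called, of the basement membrane chains 2 of 8, and of the others 3 of 19. The class medians were -0.12, -0.55 and -0.27. The number called lower was 3 without naive replicate 2, 3 without naive replicate 3, 2 with injured replicate 1 left out and 1 with injured replicate 2 left out. Leaving out injured replicate 3 gave 1 gene called higher, Col8a1.

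**Figure D1:**
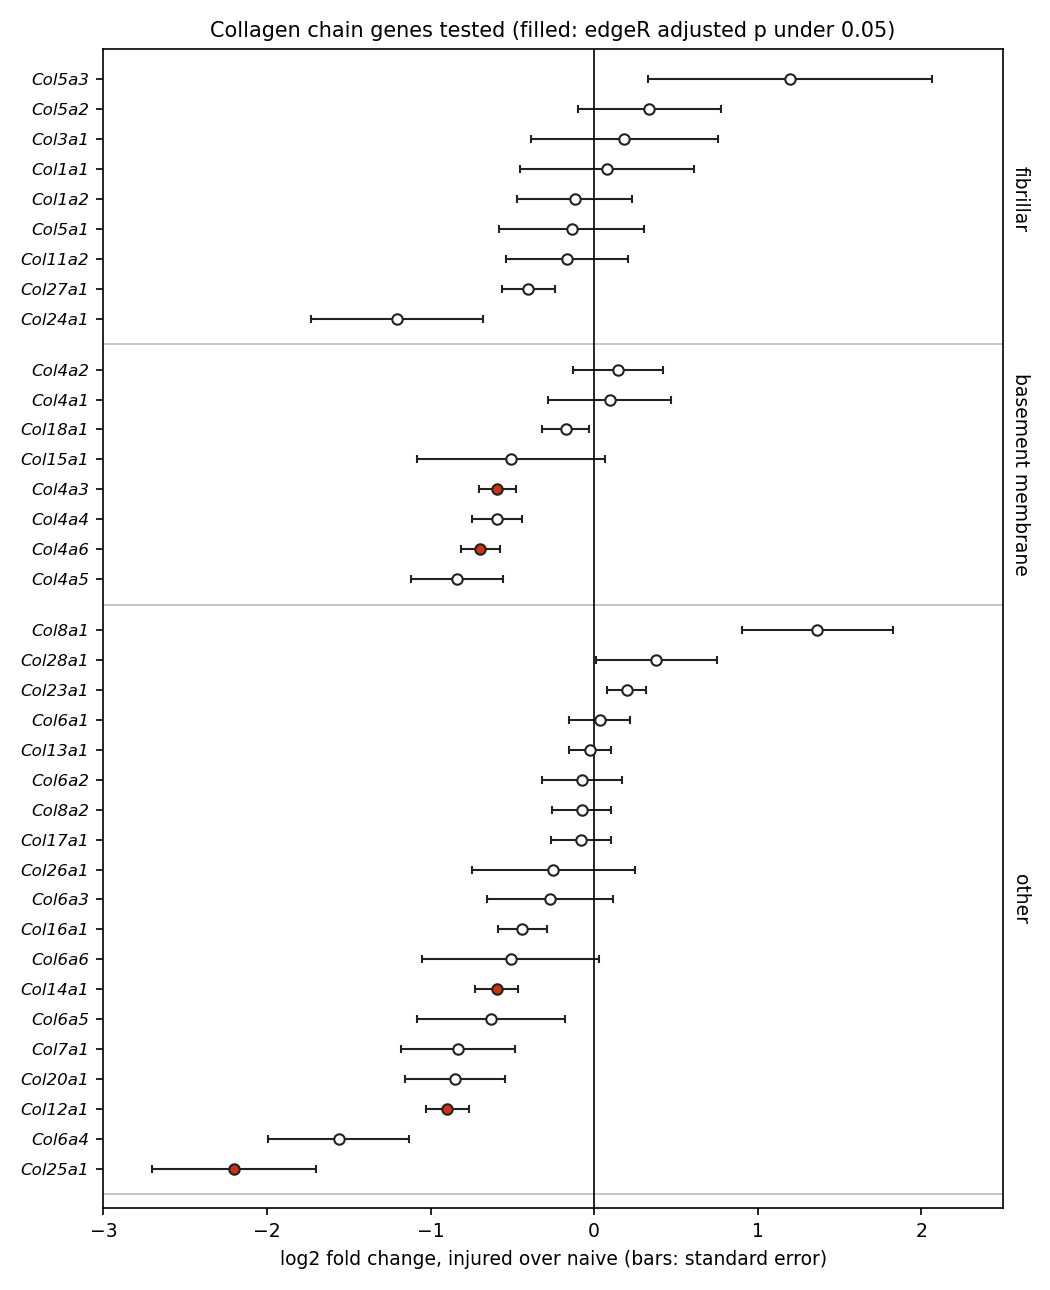
Log2 fold change of injured over naive lungs (horizontal axis) for the 36 collagen chain genes tested, by class, with bars of 1 standard error from edgeR. Filled points mark the 5 genes called lower, and fibrillar chains with wide bars lie on both sides of 0.

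Type IV collagen headed the order of levels. Col4a1 and Col4a2 had the highest FPKM of all members, 301 ± 118 and 229 ± 71.3 (SD, n = 3) in naive lungs. Col3a1 followed at 217 ± 129, Col1a2 at 140.2 ± 49.4, Col1a1 at 102 ± 53.5 and Col6a1 at 97.9 ± 23.7 FPKM. Col4a1 was above Col4a2, Col3a1 above Col1a2 and Col1a2 above Col1a1 in all 6 lungs, while the order of Col4a2 and Col3a1 and that of Col1a1 and Col6a1 changed from lung to lung. Col4a3 stood at 51.2 ± 6.45 FPKM and was the eighth in the order over all libraries.

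Col4a3 (ENSMUSG00000079465, chromosome 1, 82586921 to 82722059, mm10) encodes the α3 chain, known as the target antigen in Goodpasture disease. Its level was 429, 386 and 508 CPM in naive replicates 1, 2 and 3 and 310.4, 281 and 286 CPM in injured replicates 1, 2 and 3. The injured lungs lay close together and all below the naive lungs. Col4a3 fell from 441 ± 61.5 to 293 ± 15.5 CPM (SD, n = 3; log2 fold change -0.59 ± 0.11, adjusted p = 0.0228, edgeR). The call was lost without injured replicate 1 (adjusted p = 0.0692), without injured replicate 2 (0.0828) and with gene length offsets (0.0598), within a range of 7.79e-05 to 0.0828 over 14 alternatives.

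Col4a6 (ENSMUSG00000031273, chromosome X, 141165403 to 141474076) encodes the α6 chain, which joins α5 in some basement membranes, such as those of smooth muscle. Naive replicates held 31.9, 29.8 and 37.0 CPM and injured replicates 22.5, 18.996 and 19.5 CPM. Again the highest injured lung was below the lowest naive lung. Col4a6 fell from 32.9 ± 3.72 to 20.3 ± 1.87 CPM (SD, n = 3; log2 fold change -0.70 ± 0.12, adjusted p = 0.015, edgeR), and the call was lost only without injured replicate 2 (adjusted p = 0.0571; range 6.12e-05 to 0.0571 over 14 alternatives).

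Col4a4 and Col4a5, the remaining chains of the α3, α4 and α5 network, were not called, though their injured values lay below all naive values. Col4a4 was at 278, 321 and 431 CPM in naive and 238, 211 and 234 CPM in injured replicates (log2 fold change -0.59 ± 0.15, adjusted p = 0.077). Col4a5 was at 179.6, 221 and 359.9 CPM in naive and 128, 124 and 174 CPM in injured replicates (log2 fold change -0.84 ± 0.28, adjusted p = 0.212). DESeq2 called both lower, with adjusted p = 0.00511 and 0.00638. Their alternatives ran from 0.00511 to 0.221 and from 0.00638 to 0.429, and naive replicate 3 was the highest lung for both genes.

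Col4a1 and Col4a2 showed no such order. Col4a1 was at 1273, 1867 and 2891 CPM in naive and 1902, 1540.3 and 3000.2 CPM in injured replicates, and Col4a2 at 1014, 1466 and 1986 CPM and 1641, 1249 and 2050.1 CPM. For both genes naive and injured values overlapped, and replicate 3 was the highest in each group. The log2 fold changes were 0.10 ± 0.38 for Col4a1 (95% interval -0.83 to 1.02, adjusted p = 0.935) and 0.15 ± 0.27 for Col4a2 (-0.51 to 0.80, adjusted p = 0.857). Whether these changes differ from those of the α3 to α6 chains was not tested.

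Summed over α1 and α2, type IV transcripts were 2288, 3333 and 4877 CPM in naive and 3543, 2789 and 5050.3 CPM in injured replicates. Summed over α3 to α6 they were 918, 958 and 1336 CPM and 699, 635 and 714 CPM, a ratio of group means of 0.637. The α3 to α6 genes made up 23.9, 18.4 and 17.9% of type IV FPKM in naive and 13.3, 15.04 and 10.04% in injured replicates. Every injured share was below every naive share; this share was chosen after its values were seen and has no test. Alveolar type 1 cells are a known source of the α3 chain, and their markers had a median log2 fold change of -0.033 with 0 of 6 called. Of these 6, Pdpn lay higher in every injured than in every naive lung (log2 fold change 0.45 ± 0.10, adjusted p = 0.0511, edgeR). In the other direction, 0 of the 6 lay lower in every injured lung. Of all genes tested, 12.3% lay higher in this way and 10.6% lower. Smooth muscle and myofibroblast markers were at 838 to 1023 CPM across naive lungs and 619 to 868 CPM across injured ones in sum, with log2 fold changes from -0.82 to -0.12. Of these 9 markers 1 was called lower (Actg2), 5 were lower at an unadjusted p under 0.05 and 4 lay lower in every injured than in every naive lung. The shares over all genes tested were 0.956%, 7.66% and 10.6%. The part of these markers in the result was not tested.

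**Figure D2:**
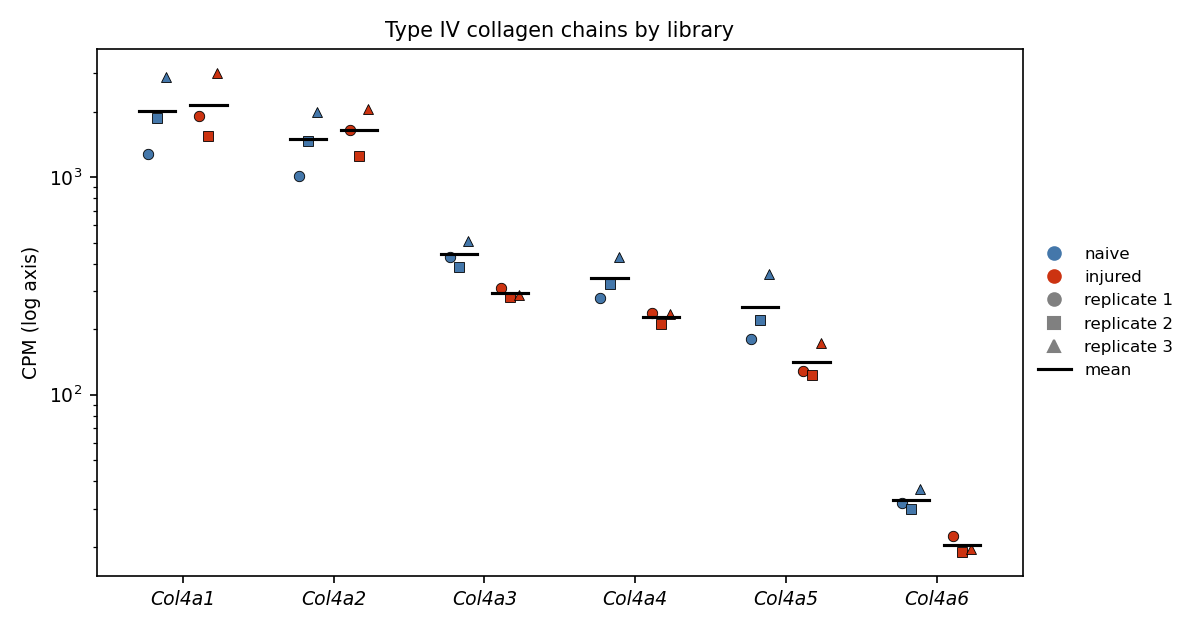
Level of the 6 type IV collagen genes (CPM, log axis) in each of the 6 lungs, colored by group, with symbols for the replicate number and a bar at each group mean. Injured lungs lie below all naive lungs for Col4a3, Col4a4, Col4a5 and Col4a6, and overlap them for Col4a1 and Col4a2.

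The other basement membrane chains are Col15a1 and Col18a1, whose proteins carry both collagen helix and sugar chains and release fragments that act on blood vessels. Col18a1 was at 84.6, 92.8 and 109.1 CPM in naive and 83.2, 69.6 and 101 CPM in injured replicates (log2 fold change -0.17 ± 0.15, adjusted p = 0.619). Col15a1 was at 12.8, 21.3 and 30.9 CPM and 9.17, 9.52 and 26.9 CPM (log2 fold change -0.51 ± 0.57, adjusted p = 0.741). Both overlapped between groups. Markers of endothelial cells, a known source of type XVIII collagen, summed to 4992 to 5365 CPM across naive lungs and 4119.7 to 5093 CPM across injured ones. Of these 8 markers 0 were called, with a median log2 fold change of -0.11 and a range of -0.27 to 0.21. Pecam1 and Cdh5 lay lower in every injured than in every naive lung, and 0 lay higher, against 10.6% and 12.3% of all genes tested. The part of these markers was not tested.

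Among the FACIT collagens, Col12a1 showed the smallest adjusted p of all members. Col12a1 (ENSMUSG00000032332, chromosome 9, 79598991 to 79718831) encodes the chain of type XII collagen, which binds the surface of type I fibers. It was at 87.8, 80.1 and 88.8 CPM in naive and 56.5, 40.7 and 40.8 CPM in injured replicates, with the naive lungs within a narrow band and the injured lungs well below it. Col12a1 fell from 85.6 ± 4.75 to 46.0 ± 9.10 CPM (SD, n = 3), or to 53.7% of naive by the fitted fold change (log2 fold change -0.90 ± 0.13, adjusted p = 0.00788, edgeR). It was called lower in all 14 alternatives, at adjusted p up to 0.0333.

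Col14a1 (ENSMUSG00000022371, chromosome 15, 55307750 to 55520803) encodes type XIV collagen, a related fiber-surface protein made by fibroblasts. Its levels were 50.4, 64.1 and 67.8 CPM in naive and 39.5, 44.9 and 36.2 CPM in injured replicates, without overlap. Col14a1 fell from 60.8 ± 9.16 to 40.2 ± 4.43 CPM (SD, n = 3; log2 fold change -0.60 ± 0.13, adjusted p = 0.0399, edgeR). The Col14a1 call was lost with limma-voom (adjusted p = 0.0674), with length offsets (0.0655) and without any 1 library except naive replicate 1, with a range of 0.00244 to 0.159 over 14 alternatives.

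Col16a1, a FACIT of broad expression, was at 53.4, 76.8 and 77.3 CPM in naive and 53.9, 54.4 and 44.9 CPM in injured replicates (log2 fold change -0.44 ± 0.15, adjusted p = 0.181). Naive replicate 1 lay at the level of the injured lungs, and without it Col16a1 was called lower (log2 fold change -0.60, adjusted p = 0.0326, range 0.0326 to 0.429 over 14 alternatives). Col20a1 was at 2.08, 1.69 and 1.87 CPM and 1.29, 1.02 and 0.843 CPM, without overlap (log2 fold change -0.85 ± 0.31, adjusted p = 0.198). The 4 FACIT genes tested thus all had negative estimates, with a median of -0.72, and their summed level, with the 5 untested genes, was 218 ± 21.6 CPM across naive lungs and 139 ± 14.0 CPM across injured ones (SD, n = 3). Fibroblast markers, with a median log2 fold change of -0.088, summed to the ranges given above. The 9 smooth muscle and myofibroblast markers had a median of -0.34, with negative estimates for all 9 and the other values given beside type IV collagen. The part of either marker list was not tested.

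**Figure D3:**
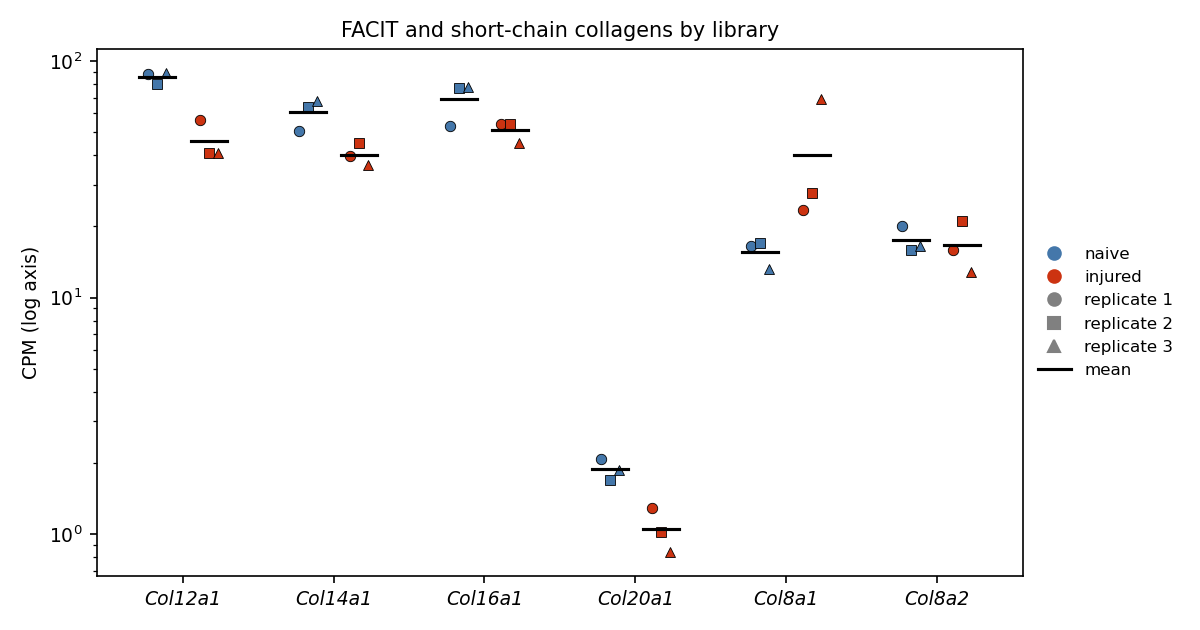
Level of 4 FACIT and 2 short-chain collagen genes (CPM, log axis) in each lung, colored by group, with symbols for replicate number and a bar at each group mean. Injured lungs lie below all naive lungs for Col12a1, Col14a1 and Col20a1, and above them for Col8a1.

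Type VIII collagen, a short-chain network former of vessel walls, held the 1 gene whose injured values all lay above the naive values. Col8a1 was at 16.5, 16.97 and 13.2 CPM in naive and 23.4, 27.7 and 68.8 CPM in injured replicates, with injured replicate 3 far above the other injured lungs (log2 fold change 1.37 ± 0.46, adjusted p = 0.237). Without injured replicate 3 the estimate was smaller and passed the threshold (log2 fold change 0.72, adjusted p = 0.0369, range 0.0369 to 0.441 over 14 alternatives). Its partner Col8a2 was at 20.1, 15.9 and 16.6 CPM and 15.9, 21.2 and 12.8 CPM, with overlap (log2 fold change -0.076 ± 0.18, adjusted p = 0.887).

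The fibrillar chains showed no called change by edgeR, DESeq2 or limma-voom, with 2.0 lower and 0.0 higher at an unadjusted p under 0.05, and lungs of the same group differed widely. Col1a1 and Col1a2, the chains of type I collagen, were at 302, 574 and 957 CPM and 489.8, 735 and 1044 CPM in naive replicates 1, 2 and 3. In injured replicates they were at 506, 458 and 973 CPM and 567, 546 and 976 CPM. Col3a1, the chain of type III collagen, was at 552, 1092 and 2023 CPM in naive and 1093, 999 and 2079.8 CPM in injured replicates. Within each group the highest lung held up to 3.66 times the lowest for Col3a1, and the groups overlapped for all 3 genes. The log2 fold changes were 0.080 ± 0.53 for Col1a1 (95% interval -1.30 to 1.46), -0.12 ± 0.35 for Col1a2 (-0.99 to 0.75) and 0.19 ± 0.57 for Col3a1 (-1.30 to 1.68). Adjusted p was 0.966, 0.91 and 0.916. These intervals include more than a 2-fold change in either direction for Col1a1 and Col3a1, so changes of that size were not excluded.

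Type V collagen, which initiates and limits fibers of type I, has the chains of Col5a1, Col5a2 and Col5a3. Col5a1 was at 71.8, 102 and 192 CPM in naive and 102, 81.0 and 149 CPM in injured replicates, and Col5a2 at 103, 158 and 239 CPM and 170.2, 147 and 314 CPM. Col5a3 was at 3.39, 5.02 and 14.5 CPM and 10.02, 8.10 and 35.1 CPM, a log2 fold change of 1.20 ± 0.87 that was not called (adjusted p = 0.587). Leaving out naive replicate 3 gave an estimate of 2.09, and leaving out injured replicate 3 gave 0.23. With replicate number as a block, Col5a3 was called higher by edgeR (adjusted p = 0.0111). All 3 type V genes overlapped between groups and were highest in replicate 3 of each. Col27a1, a chain of cartilage and other tissues, was at 17.4, 18.97 and 18.5 CPM and 13.4, 10.8 and 17.2 CPM (log2 fold change -0.40 ± 0.16, adjusted p = 0.251), and Col24a1, with 41 and 14 counts in naive and injured libraries, had a log2 fold change of -1.21 ± 0.53 (adjusted p = 0.288). For both, injured values lay below naive values. Col11a2 had a log2 fold change of -0.17 ± 0.37 (adjusted p = 0.881).

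The order of the lungs was shared by many of these genes. Naive replicate 1 was the lowest and naive replicate 3 the highest naive lung, with injured replicate 3 the highest injured lung, for 7 of 9 fibrillar, 5 of 8 basement membrane and 5 of 19 other genes tested. Over the 36 genes this was 47.2%, against 10.1% of all genes tested. The order was chosen after the collagen values were seen and has no test. The median coefficient of variation of the 7 fibrillar genes at a mean of 10 CPM or more was 51.4% in naive and 42.9% in injured lungs. Over the 10060 genes of all kinds at this level it was 8.77% and 8.01%, and for basement membrane genes 27.9% and 19.04%. All collagen genes together took 0.604, 0.861 and 1.24% of counts in naive and 0.821, 0.704 and 1.21% in injured replicates. Mesothelial markers summed to 375 to 447 CPM across naive lungs and 225 to 454 CPM across injured ones, with 0 of 6 called. Single markers went in different directions. Upk3b lay lower in every injured than in every naive lung (log2 fold change -1.34 ± 0.71, adjusted p = 0.453, edgeR). Krt19 lay higher in every injured lung (0.52 ± 0.13, adjusted p = 0.0766). The part of these markers was not tested.

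**Figure D4:**
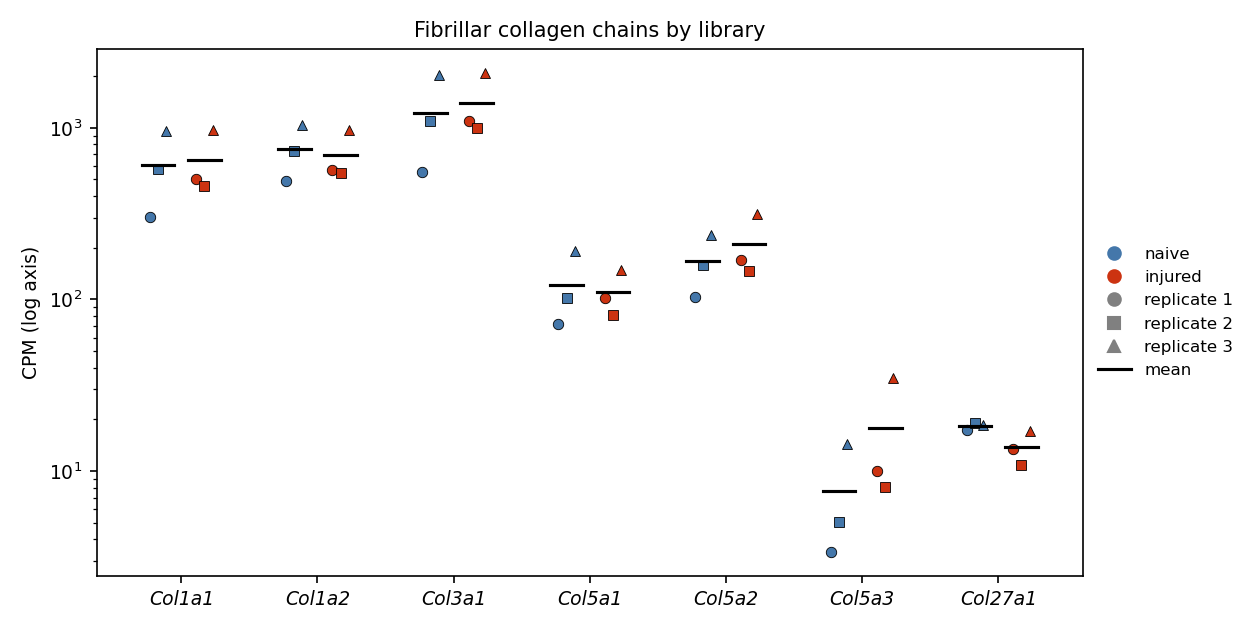
Level of 7 fibrillar collagen genes (CPM, log axis) in each lung, colored by group, with symbols for replicate number and a bar at each group mean. Replicate 3 is the highest lung of each group for Col1a1, Col1a2, Col3a1, Col5a1, Col5a2 and Col5a3, and the groups overlap for these 6 genes.

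Type VI collagen, which forms beaded filaments around cells, is made mainly from Col6a1, Col6a2 and Col6a3. Col6a1 was at 295, 419.5 and 499 CPM in naive and 418, 358 and 466 CPM in injured replicates, and Col6a2 at 228, 352 and 459 CPM and 328, 288 and 372 CPM. Col6a3 was at 158, 238 and 370.1 CPM and 187, 161 and 288 CPM. The log2 fold changes were 0.034 ± 0.19, -0.072 ± 0.24 and -0.27 ± 0.38, with adjusted p = 0.956, 0.923 and 0.803, and the groups overlapped for each. The rarer chains were Col6a4, Col6a5 and Col6a6. Col6a4 had 151 and 42 counts in the naive and injured libraries, with injured below naive values in every lung (log2 fold change -1.56 ± 0.43, adjusted p = 0.0968). DESeq2 called Col6a4 lower (adjusted p = 0.0348, range 0.0348 to 0.306 over 13 alternatives). Col6a5 and Col6a6 had log2 fold changes of -0.63 ± 0.45 and -0.51 ± 0.54 (adjusted p = 0.546 and 0.705).

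Transmembrane collagens are anchored in the cell membrane. Col25a1 (ENSMUSG00000058897, chromosome 3, 130180891 to 130599877), known from neurons, was called lower at very low levels, 0.772, 0.529 and 0.789 CPM in naive and 0.0992, 0.133 and 0.211 CPM in injured replicates, with 60 and 10 counts in the naive and injured libraries (log2 fold change -2.20 ± 0.50, adjusted p = 0.0483). All injured values were below the naive values, yet the call was lost without any 1 library and in 5 of 7 other settings, with a range of 0.0474 to 0.18. Col13a1 was at 82.3, 93.6 and 101 CPM and 95.8, 75.0 and 102 CPM, and Col23a1 at 146, 129 and 139 CPM and 138, 148 and 188 CPM, with log2 fold changes of -0.022 ± 0.13 and 0.20 ± 0.12 (adjusted p = 0.957 and 0.466). Col17a1, a component of hemidesmosomes, had a log2 fold change of -0.079 ± 0.18 (adjusted p = 0.884). All 3 overlapped between groups.

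The remaining tested chains are Col7a1, Col26a1 and Col28a1. Col7a1, which forms anchoring fibrils below epithelium, was at 6.38, 6.71 and 8.80 CPM in naive and 3.12, 2.48 and 6.66 CPM in injured replicates (log2 fold change -0.83 ± 0.35, adjusted p = 0.276). Injured replicate 3 lay at the naive level, and without it Col7a1 was called lower (log2 fold change -1.39, adjusted p = 0.0201, range 0.0201 to 0.54 over 14 alternatives). Col28a1 and Col26a1 had log2 fold changes of 0.38 ± 0.37 and -0.25 ± 0.50 (adjusted p = 0.673 and 0.864).

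The 8 genes with too few counts to test were mostly chains of cartilage. Summed counts in naive and in injured libraries were 14 and 38 for Col2a1, 10 and 29 for Col11a1, 34 and 29 for Col10a1, 5 and 6 for Col9a1, 5 and 11 for Col9a2 and 13 and 8 for Col9a3. Most of the injured counts came from injured replicate 3 for 5 of these genes: 37 for Col2a1, the main fiber chain of cartilage, 27 for Col11a1, 26 for Col10a1, 6 for Col9a1 and 11 for Col9a2. Of the naive counts of Col10a1, 30 came from naive replicate 3. The injured sums of these 5 genes rest mainly on 1 library. Col19a1 had 5 and 1 counts and Col22a1 28 and 24. Cartilage markers summed to 13.8 to 20.8 CPM across naive lungs and 12.1 to 26.7 CPM across injured ones, with Acan, Lect1, Matn1 and Matn3 at 0 in at least 1 library. Most of this sum was Cytl1, at 19.04, 11.7 and 10.7 CPM in naive and 9.97, 14.4 and 21.8 CPM in injured replicates. Injured replicate 3 was the highest of the 6 lungs for Acan (0.422 CPM), Lect1 (0.337 CPM) and Sox9 (2.49 CPM), where the next highest lungs held 0.0529, 0.106 and 0.994 CPM. It was also the highest for Matn1 (0.0422 CPM), Matn3 (0.0843 CPM) and Cytl1. It was not for Hapln1, highest in naive replicate 3 (1.87 against 1.48 CPM), nor for Comp, highest in injured replicate 2 (0.266 against 0.126 CPM). The part of cartilage in these counts was not tested.

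The stoichiometry of chains that share a protein was compared as the ratio of their FPKM in 6 pairs, with exact two-sided permutation tests that cannot go below p = 0.1 with 3 against 3 lungs. Col1a1 over Col1a2 was 0.555, 0.704 and 0.826 in naive and 0.804, 0.757 and 0.898 in injured replicates (exact p = 0.3, adjusted 0.6). Col4a1 over Col4a2 was 1.29 ± 0.108 in naive and 1.25 ± 0.155 in injured lungs (exact p = 0.6, adjusted 0.72). Col4a3 over Col4a4 was 1.55 ± 0.244 and 1.52 ± 0.0695 (exact p = 1, adjusted 1), and Col6a1 over Col6a2 was 1.43 ± 0.123 and 1.51 ± 0.0195 (exact p = 0.4, adjusted 0.6). These 4 ratios overlapped between groups. Col5a1 over Col5a2 was 0.550, 0.508 and 0.634 in naive and 0.475, 0.433 and 0.375 in injured replicates, all lower in injured lungs (exact p = 0.1, adjusted 0.3). Col8a1 over Col8a2 was 0.696, 0.904 and 0.678 and 1.24, 1.11 and 4.56, all higher in injured lungs, led by injured replicate 3 (exact p = 0.1, adjusted 0.3). For both pairs this is the smallest p the design allows, and 0 of 6 pairs passed 0.05 after adjustment.

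**Figure D5:**
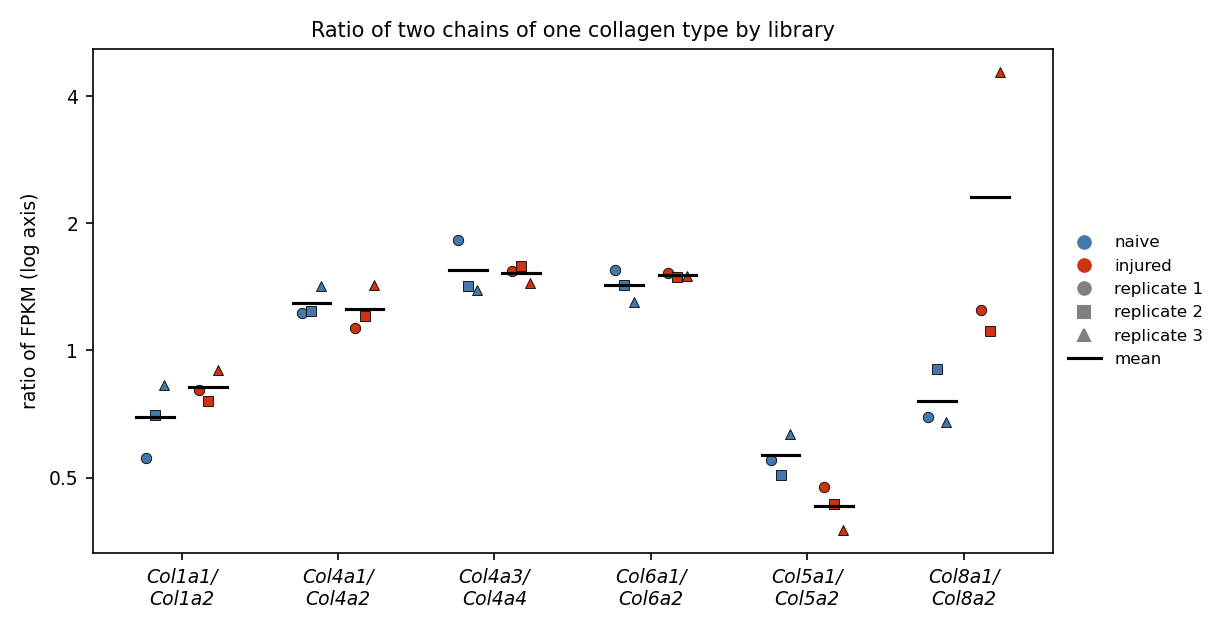
Ratio of FPKM of 2 chains of one collagen type (log axis) in each lung, colored by group, with symbols for replicate number and a bar at each group mean. Groups do not overlap for Col5a1 over Col5a2, lower in injured lungs, nor for Col8a1 over Col8a2, higher in injured lungs, where injured replicate 3 stands at 4.56.

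Enzymes and chaperones that modify and fold collagen in the cell were not called, 0 of 18 tested in either direction. Of all genes tested 3.11% were called, and the median log2 fold change over the 18 was 0.022. At an unadjusted p under 0.05, 2 of the 18 were higher and 1 lower by edgeR, against 9.06% and 7.66% of all genes tested. Of the 18, DESeq2 called 1 lower and 0 higher, and limma-voom 0 and 0. P4hb, a subunit of the prolyl hydroxylase, was at 555, 586 and 614 CPM in naive and 669, 666 and 756 CPM in injured replicates (log2 fold change 0.25 ± 0.10, adjusted p = 0.216). Serpinh1, a chaperone for collagen helices, was at 293, 454 and 828 CPM and 425, 372 and 618 CPM (log2 fold change -0.15 ± 0.43, adjusted p = 0.905), with the same order of naive lungs as Col1a1. Plod2, a lysyl hydroxylase of the crosslinked ends of collagen, missed the threshold (log2 fold change -0.48 ± 0.11, adjusted p = 0.0518). DESeq2 called Plod2 lower (adjusted p = 0.00594, range 0.00594 to 0.176 over 14 alternatives).

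Of 16 genes of collagen secretion, propeptide cleavage and crosslinking, 1 was called lower and 0 higher (0.956% and 2.16% of all genes tested). The median over the 16 genes was -0.10. By edgeR, 2 of the 16 were lower and 0 higher at an unadjusted p under 0.05 (7.66% and 9.06% of all genes tested). DESeq2 called 1 lower and 0 higher, and limma-voom 1 and 0. Pcolce2, which speeds the removal of the C-terminal propeptide, was at 349.9, 412 and 417 CPM in naive and 246, 257 and 176 CPM in injured replicates, without overlap. It fell from 393 ± 37.3 to 226 ± 43.9 CPM (SD, n = 3; log2 fold change -0.79 ± 0.15, adjusted p = 0.0208, edgeR), a call lost when naive replicate 2, naive replicate 3 or injured replicate 1 was left out (adjusted p range 1.73e-05 to 0.0919 over 14 alternatives).

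Of 11 collagen receptors tested of 12 listed, 1 was called lower and 0 higher (0.956% and 2.16% of all genes tested). The median over the 11 genes was -0.32. By edgeR, 4 of the 11 were lower and 0 higher at an unadjusted p under 0.05 (7.66% and 9.06% of all genes tested). DESeq2 called 4 lower and 0 higher, and limma-voom 1 and 0. Itga2, the α2 integrin of epithelium and platelets, was at 25.0, 22.0 and 26.2 CPM in naive and 14.1, 18.3 and 15.5 CPM in injured replicates, without overlap (log2 fold change -0.61 ± 0.13, adjusted p = 0.0336, edgeR). Leaving out any single library other than injured replicate 2 lost the call (adjusted p 0.00232 to 0.14 over 14 alternatives). Itga1, Ddr2 and Gpr126, also receptors for collagen, were lower at unadjusted p under 0.05 but not called. Their log2 fold changes were -0.36 ± 0.10, -0.37 ± 0.10 and -0.32 ± 0.089, with adjusted p = 0.0968, 0.102 and 0.0951. DESeq2 called these 3 lower as well (adjusted p = 0.027, 0.034 and 0.0275, within 0.027 to 0.294, 0.034 to 0.323 and 0.0275 to 0.269 over 14 alternatives). They were named after their values were seen.

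Of 9 proteases that degrade collagen, 2 were called higher and 0 lower (2.16% and 0.956% of all genes tested). The median log2 fold change over the 9 genes was 0.59. By edgeR, 5 of the 9 were higher and 0 lower at an unadjusted p under 0.05 (9.06% and 7.66% of all genes tested). DESeq2 called 3 higher and 0 lower, and limma-voom 2 and 0. Every injured lung lay above every naive lung for 5 of the 9 and below for 0, against 12.3% and 10.6% of all genes tested. Mmp8, a collagenase stored in neutrophils, was at 3.83, 2.96 and 4.80 CPM in naive and 49.0, 65.2 and 33.6 CPM in injured replicates. Mmp9, a gelatinase that also cuts type IV collagen, was at 10.8, 10.1 and 10.9 CPM and 153, 127 and 68.0 CPM. Both lay above all naive values in every injured lung. Mmp8 rose by a log2 fold change of 3.65 ± 0.29, adjusted p = 0.00149 (edgeR), and Mmp9 by a log2 fold change of 3.45 ± 0.32, adjusted p = 0.0055. Both were called in all 14 alternatives, at adjusted p up to 0.0174 for Mmp8 and 0.049998 for Mmp9. The neutrophil markers that rose in the same lungs have the values given above; their part in the rise of Mmp8 and Mmp9 was not tested.

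Of the 44 genes, 37 have an adjusted p in the authors' deposited table, and 7 of them are lower and 0 higher at an adjusted p under 0.05, against 2.54% and 3.61% of genes with an adjusted p there. In the authors' deposited table these are Col12a1, Col14a1, Col4a3, Col4a4, Col4a5, Col4a6 and Col6a4. The authors' deposited table gives a log2 fold change of -0.81 for Col12a1 and -0.55 for Col4a3, against -0.90 and -0.59 by edgeR. The gap was wider for some other members. Col25a1 is at -0.55 there against -2.20 by edgeR, and Col6a4 at -0.67 against -1.56. Col8a1 is at 0.58 against 1.37, and Col5a3 at 0.24 against 1.20. The sizes of the 2 estimates are thus not on a like scale. Exons of 10 collagen genes overlap exons of another gene on the opposite strand in the annotation GENCODE M21, and whether counting used strand is not given in the sources used here. For Col4a3 the overlap with C430014B12Rik reaches 289 bases in 1 exon, so reads of those genes may not be told apart there.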

How the data were processed

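RNA sequencing of 6 whole left lungs, 3 naive and 3 injured, is given as 1 deposited table. Per the labels' protocols, lungs were kept in RNAlater and libraries made with NEBNext Ultra II were read in pairs of 150 bases on a NovaSeq instrument. Per the file headers, the deposited table holds read counts per gene, with the authors' normalized counts (a signal that equals counts over a single library factor; tolerance 1e-06, relative) and the authors' FPKM. Per the file headers, it also gives the authors' log2 fold changes, p-values and adjusted p-values. Per the submitters' processing notes, the tools were edgeR, DESeq2, HTSeq, STAR and STAR-Fusion with the build mm10. Versions were not given in the sources used here.

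Counts were analysed as deposited, with library totals of 18913487 to 34986276, and no per-library column was left out. Genes were kept by filterByExpr (15486 genes), scaled by TMM and tested with edgeR 4.0.16's robust quasi-likelihood F test with group as the only term (limma 3.58.1, R 4.3.3), adjusted by Benjamini-Hochberg over all genes tested and called at an adjusted p under 0.05. Procedures were tested on simulated data. CPM are counts over TMM-adjusted library size, and 95% intervals come from the same fit. The 6 chain pairs were compared by exact permutation tests of log2 FPKM ratios. Alternatives were DESeq2 size factors, total counts alone, no filter, 1 CPM in 3 libraries, DESeq2 1.42.0, limma-voom, a replicate block, gene length offsets and each library left out.

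Each lung is 1 library, and a left lung comes from 1 mouse. The p-values set the difference between groups against the spread between these lungs. In edgeR that spread is estimated for each gene with help from other genes. The members and gene lists were chosen with earlier results of these data known. Text names called members, the 2 most abundant of each class, members of the chain pairs, untested members and, per list, up to 3 called genes in each direction or the 2 most abundant. The other members, Plod2, Itga1, Ddr2 and Gpr126 were named after their values were seen. Of list symbols, 8 were matched to older symbols through Ensembl identifiers, and the symbols Sc65, Tll2 and Myh4 matched no row.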

Additional observations from a re-analysis of the deposited data

How the results depend on the processing

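Of 363 values of 46 named genes under settings that kept all libraries, 342 kept direction and side of the threshold, 8 lost the call, 13 gained it and 0 changed sign. With 1 library left out, 219 of 276 kept both, 22 lost the call, 6 gained it and 29 changed sign; the cause was not tested. Collagen genes called lower numbered 3 with limma-voom, 2 with gene length offsets and 1 to 7 with 1 library left out, and those called higher 1 with the replicate block and 0 to 1 with 1 library left out. Length offsets moved the median log2 fold change of the members from -0.21 to -0.10. Over all genes, 585 were higher and 417 lower by DESeq2, 269 were lower with no filter, and with 1 library left out 145 to 333 were higher and 48 to 146 lower, the fewest higher without naive replicate 2 and the fewest lower without injured replicate 1. Modification genes called lower numbered 1 with total counts alone, no filter or DESeq2, and those higher 0 to 1 with 1 library left out. Secretion genes called higher numbered 1 with the block and those lower 0 to 2 with 1 library left out. Receptors called lower numbered 4 by DESeq2 and 0 to 1 with 1 library left out, and proteases called higher 4 with the block. These list, class sum and ratio alternatives were added after the data were seen. None of the genes whose log2 fold change changed sign with 1 library left out was called; their ranges were Col3a1 -0.23 to 0.75, Col1a2 -0.44 to 0.18, Col4a1 -0.22 to 0.45, Col4a2 -0.074 to 0.40, Col28a1 -0.0065 to 0.67, Col6a1 -0.16 to 0.21, Col6a2 -0.31 to 0.18, Col8a2 -0.29 to 0.082, Col13a1 -0.11 to 0.10, Col1a1 -0.34 to 0.56, Col5a1 -0.41 to 0.35, Col5a2 -0.070 to 0.69, Col11a2 -0.39 to 0.16, Col17a1 -0.21 to 0.029, Col26a1 -0.51 to 0.014, Col6a3 -0.56 to 0.092 and Serpinh1 -0.45 to 0.33. The log2 difference of Col4a1 over Col4a2 ranged from -0.15 to 0.020 and that of Col4a3 over Col4a4 from -0.082 to 0.11. The log2 ratio of summed fibrillar CPM was 0.088, with -0.30 to 0.55 as 1 library was left out. Same-numbered lungs of the groups had correlations of deviations of 0.102, -0.0813 and 0.193. Replicate 3 of each group correlated best with its own number, while naive replicate 1 correlated best with injured replicate 2 (0.316). The titles do not say what the numbers mark, and these values cannot settle whether they pair the samples. With the replicate block 5 members were lower and 1 higher (Col5a3, adjusted p = 0.0111), and 4 of the 5 lower genes were shared, with Col4a5 (adjusted p = 0.0108) called in place of Col25a1. Col25a1 and Col6a4 had 60 and 151 counts over the naive and 10 and 42 over the injured libraries.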
